A study of Mus musculus with 60 samples.

Results

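The 4 genes of DNA polymerase epsilon (Pole, Pole2, Pole3 and Pole4) and the 6 genes of the MCM2-7 helicase (Mcm2, Mcm3, Mcm4, Mcm5, Mcm6 and Mcm7) were followed in mouse embryonic stem cells (mESCs). These 10 genes, of 55487 genes in the count tables, were taken by name and not by their values, though with earlier results of these data known. All 10 were tested in each comparison. The data comprise 60 RNA libraries in 20 groups of 3. All cells were E14JU mESCs, and each of the 2 lines was 1 clone. In the POLE4-dTAG line, a degron tag was added by CRISPR at the end of the Pole4 reading frame, so that the compound dTAG at 1 µM depletes the POLE4 protein and not its mRNA. The protein was not measured in these libraries, and the study proposes that its degradation was probably incomplete. The control arm received DMSO (Ctrl) and the other received dTAG (dPOLE4). The MCM2-2A line carries the same tag together with an MCM2 mutant that does not bind histones, and was given DMSO (Ctrl MCM2-2A) or dTAG (dPOLE4 MCM2-2A). Every group therefore carries the Pole4 tag, and no untagged cells were measured. In 16 groups the cells were given DMSO or dTAG for 24 h in serum and LIF, a cytokine that keeps mESCs pluripotent. They were taken then (T0) or after a further 12, 24 or 60 h with retinoic acid (RA) without LIF (T12, T24 and T60). In the other 4 groups the cells were given DMSO or dTAG for 96 h in serum and LIF. The study's methods call the 3 libraries of a group biological replicates, while the labels only number them.

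MCM2 to MCM7 form a ring of 6 subunits that is loaded on DNA in G1 phase and becomes the motor of the replicative helicase, the CMG complex, once CDC45 and GINS join it. POLE, the catalytic subunit of polymerase epsilon, copies the leading strand and sits on the CMG together with POLE2. POLE3 and POLE4 are small histone-fold subunits that form a dimer and pass parental histones to the leading strand. The amino-terminal tail of MCM2 binds histones H3 and H4 and passes them to the lagging strand. In cycling cells, mRNAs of many such genes are made from E2F target promoters around the start of S phase.

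Promoter sequences are shown because the MCM genes all fell by T60 of RA, Mcm7 the least, while their promoters differed in letters. RefSeq (GRCm38.p6) held a promoter for 8 of the 10 genes, all but Pole and Mcm4. The 180 bases before the start are printed below 5′ to 3′ for 5 of them, on the strand of the gene. Capitals mark, on either strand, matches to the E2F-type letters (TTCCCGC, else TTGGCGC, else TTCGCGC, else TTGCCGC) and to the CCAAT box.
Mcm2, minus strand, chr6:88898781-88898960: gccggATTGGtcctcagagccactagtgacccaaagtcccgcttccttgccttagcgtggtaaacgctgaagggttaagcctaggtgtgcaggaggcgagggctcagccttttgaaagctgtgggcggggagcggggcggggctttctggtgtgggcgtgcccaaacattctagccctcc
Mcm3, minus strand, chr1:20820313-20820492: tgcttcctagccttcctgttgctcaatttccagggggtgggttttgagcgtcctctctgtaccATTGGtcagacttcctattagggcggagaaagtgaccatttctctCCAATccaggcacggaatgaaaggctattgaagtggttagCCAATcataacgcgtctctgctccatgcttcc
Mcm5, plus strand, chr8:75109329-75109508: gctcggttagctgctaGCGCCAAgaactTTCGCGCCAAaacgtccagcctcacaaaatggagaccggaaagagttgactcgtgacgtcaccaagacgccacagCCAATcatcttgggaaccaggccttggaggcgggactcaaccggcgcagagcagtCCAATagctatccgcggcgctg
Mcm6, minus strand, chr1:128359706-128359885: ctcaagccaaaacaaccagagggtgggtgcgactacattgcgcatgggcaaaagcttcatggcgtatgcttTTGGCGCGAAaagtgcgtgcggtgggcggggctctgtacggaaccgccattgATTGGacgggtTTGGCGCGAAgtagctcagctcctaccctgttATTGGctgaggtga
Pole2, minus strand, chr12:69228191-69228370: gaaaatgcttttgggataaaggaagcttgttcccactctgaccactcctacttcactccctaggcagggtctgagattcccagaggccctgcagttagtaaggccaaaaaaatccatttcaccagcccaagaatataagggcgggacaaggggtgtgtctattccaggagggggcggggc

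Mcm5 held 3 E2F-type matches and Mcm6 held 4 in these windows, where the capitals of overlapping matches run together. Mcm2 and Mcm3 held CCAAT alone, 1 and 3 matches, and Pole2 held neither. Over the 250 bases before the start, E2F-type letters stood in 5 of the 8 promoters (Pole3, Pole4, Mcm5, Mcm6 and Mcm7) and in 8.03% of 27025 promoters. Those of Pole3, Pole4 and Mcm7 are not printed, because 54, 55 and 180 of their last 180 bases lay in annotated exons. The Pole4 window lies inside the span of the Pole4 gene given below. CCAAT stood in 5 of 8 against 34.5% of all, the GC box GGGCGG in 6 of 8 against 33%, and the CHR-type letters TTTGAA or TTCGAA in 2 of 8 against 17.5%. A match is a description of letters, and no binding was measured.

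Libraries of the RA experiment held from 10461077 to 46609151 counts, and those of the 96 h experiment from 7126100 to 23598266. Marker lists were used to check the cell state. The summed level of 7 pluripotency genes was 2647 CPM (normalized counts scaled to a common library total, mean of 3) in Ctrl at T0 and 181 at T60, and all 7 fell. Of 7 RA response and neural genes 6 rose, and all 7 endoderm genes rose, their sum going from 17.9 to 339 CPM. The 5 tested genes of a 2-cell-like state rose as well, the sum of their list going from 14.2 to 259 CPM. At T60 the pluripotency sum stood at 409.7 CPM in Ctrl MCM2-2A and 582 in dPOLE4 MCM2-2A, against 181 and 198 in the arms of the other line. The lines also differed by chromosome, a stretch chosen after its values were seen included. Over the 10 comparisons of lines below, the median log2 fold change of MCM2-2A against POLE4-dTAG cells lay between -0.55 and -0.48 for genes of chromosome 11, between 0.44 and 0.56 for chromosome 15, and between 0.93 and 1.03 for 48 to 68 Mb of chromosome 14. The chromosomes of the 10 genes (1, 4, 5, 6, 8, 12 and 16) had medians between -0.04 and 0.18. DNA was not measured, and differences between lines are differences between clones.

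The 10 genes lie on 7 chromosomes (mm10, whole gene from first to last exon). Pole is at chr5:110286306-110337474, Pole2 at chr12:69201773-69228195, Pole3 at chr4:62522649-62525068 and Pole4 at chr6:82618992-82705365. Mcm2 is at chr6:88883474-88898780, Mcm3 at chr1:20802968-20820312, Mcm4 at chr16:15623897-15637400, Mcm5 at chr8:75109569-75128439, Mcm6 at chr1:128331590-128359664 and Mcm7 at chr5:138164583-138172422. The MCM genes were expressed far above the polymerase genes. Per kilobase of exon, Ctrl cells at T0 had 124 ± 2.12 CPM of Mcm5 and 123 ± 1.96 of Mcm3 (SD, n = 3 for each value here), which did not differ beyond their spread. Mcm7 followed at 92.6 ± 3.03 and Mcm4 at 88.0 ± 1.61. Mcm2 at 71.5 ± 1.55 and Mcm6 at 70.9 ± 4.80 were again within their spread of each other. Pole4 had 20.9 ± 0.908 CPM per kilobase, Pole 15.2 ± 0.984, Pole3 15.1 ± 0.481 and Pole2 9.15 ± 0.594, so that only Pole and Pole3 among these neighbours were within their spread. The order depended on the length used, and with the longest transcript in place of all exons Mcm2 moved to 142 CPM per kilobase, second to Mcm5 at 147. Reads of Mcm7 may be shared with Cops6 and Ap4m1, which overlap it on the opposite strand, since the strand setting of the counting is not stated. Those of Pole2 may be shared with Gm49384 under any strand setting, since it overlaps Pole2 on the same strand.

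**Figure D1:**
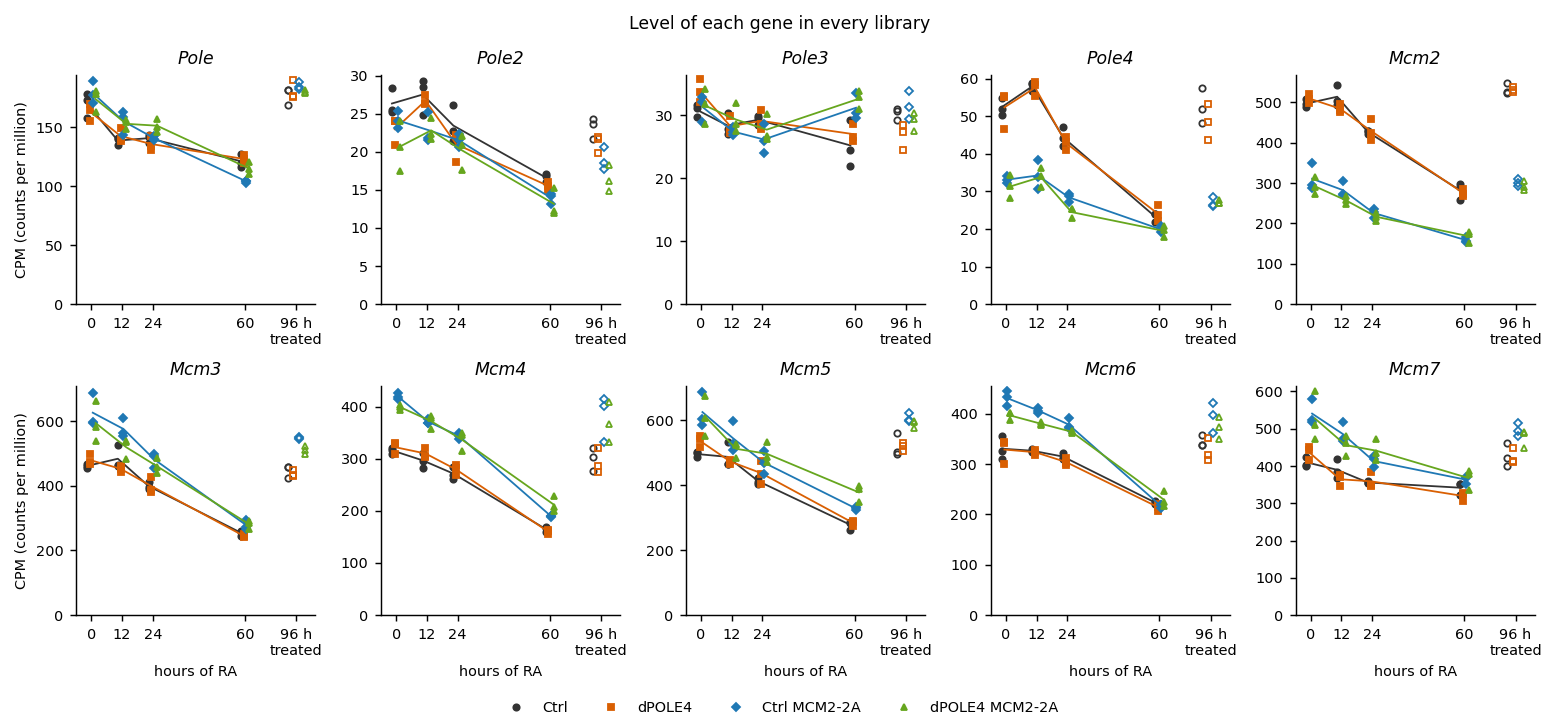
Normalized level (CPM, y axes from 0) of each of the 10 genes in every library against hours of RA, with the 96 h treated groups at the right; filled points are libraries of the RA experiment, lines join group means and open symbols are the 96 h libraries, coloured by arm. In Mcm2 and Pole4 the MCM2-2A arms lie below the other arms at T0, at 488 to 521 CPM against 272 to 350.1 for Mcm2, while in Mcm3 to Mcm7 they lie at or above them.

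Depletion of POLE4 protein by dTAG was compared with DMSO at each time to ask whether the mRNAs of the replication machine answered it. None of the 10 genes was called, that is, none had a Benjamini-Hochberg adjusted p below 0.01 in edgeR's quasi-likelihood test together with a change of over 1.5-fold (0.58 on the log2 scale). Mcm2 had 488, 495 and 509 CPM in the Ctrl libraries at T0 and 521, 499 and 509 in dPOLE4. Pole4, whose protein dTAG depletes, had 50.4, 54.9 and 52.1 CPM in Ctrl and 46.7, 55.1 and 55.5 in dPOLE4. For both genes the groups overlapped. Over 5 times the log2 fold changes of the 10 genes lay between -0.20 and 0.13, their 95% intervals between -0.38 and 0.30, and the lowest adjusted p was 0.401 (edgeR). At an unadjusted p under 0.05 there were 2 of 50 values. Among all features tested, genes and repeats together, 0% were called at T0, T12, T24 and 96 h and 0.193% at T60. With the replicate number as a block, which applies at T0 and 96 h because same-numbered libraries deviated together, 6 features were called at T0 and 142 at 96 h, none of them among the 10 genes. Without the block, features with an unadjusted p under 0.05 were 2069 of 17792 at T0, 1150 of 17914 at T12 and 1451 of 19093 at T24. They were 2446 of 17116 at T60 and 2164 of 17580 at 96 h. DESeq2 called 2 features at T12, 15 at T24 and 25 at 96 h.

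In the MCM2-2A line, dTAG gave the same count of 0 called among the 10 genes at every time. Mcm2 had 350.1, 295 and 288 CPM in Ctrl MCM2-2A at T0 and 314, 289.6 and 272 in dPOLE4 MCM2-2A, and Pole4 had 34.2, 33.1 and 32.2 against 28.4, 31.3 and 34.3. The groups overlapped here too. Log2 fold changes lay between -0.21 and 0.20, with 95% intervals between -0.49 and 0.35, and 6 of 50 values had an unadjusted p under 0.05. Among all features, 2457 of 18171 at T0, 3179 of 18077 at T12 and 3888 of 18441 at T24 passed that threshold. So did 4302 of 18473 at T60 and 2004 of 17421 at 96 h. The lowest adjusted p of the 10 genes was 0.0889 (edgeR), for Mcm5, the MCM subunit beside MCM2 at the gate of the ring, at T60. Background calls were 0.0715% of features at T0, 0.404% at T12, 1.02% at T24, 2.25% at T60 and 0.304% at 96 h. With the block, which applies here at the same 2 times, the count of called features went from 13 to 143 at T0 and from 53 to 307 at 96 h, again with 0 of the 10 genes. The difference of the dTAG effect between the lines was called for none of the 10 genes. Its values lay between -0.18 and 0.20, its 95% intervals between -0.40 and 0.41, and its lowest adjusted p was 0.380 (edgeR), against background calls of 0.00526%, 0.0159%, 0.0351%, 0.10% and 0% in the order T0, T12, T24, T60 and 96 h. At 96 h DESeq2 called 1 feature.

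Between the lines, Mcm2 and Pole4 were called at T0, T12, T24 and 96 h in the DMSO arms, and the other 8 genes were not. Among all features 18.9%, 14.5%, 17.3% and 15.7% were called in either direction at these times, so that 2 of 10 is near the background. Mcm2 was lower in the MCM2-2A line. At T0 its 3 values in Ctrl MCM2-2A (350.1, 295 and 288 CPM) all lay below those in Ctrl (488, 495 and 509). The log2 fold change was -0.70 ± 0.0633 (SE; adjusted p = 4.40e-06, edgeR). It was -0.85 at T12, -0.89 at T24, -0.82 at T60 and -0.81 at 96 h, with adjusted p between 2.78e-10 and 8.09e-06 over the 5 times (edgeR). At 96 h, in separate libraries, Mcm2 had 549, 523 and 526 CPM in Ctrl and 301, 309 and 292 in Ctrl MCM2-2A. Under dTAG the values were -0.81, -0.90, -0.98, -0.72 and -0.85 in the same order, so that Mcm2 was called lower in all 10 comparisons and the groups never overlapped. The share of all features whose groups did not overlap was not counted, here or below. Comparisons at 1 time in the 2 arms use separate libraries of the same clones. In bulk RNA, fewer cells of a type and less RNA per cell cannot be told apart.

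Pole4 was the other gene. At T0 it had 50.4, 54.9 and 52.1 CPM in Ctrl and 34.2, 33.1 and 32.2 in Ctrl MCM2-2A, a log2 fold change of -0.68 ± 0.0586 (SE; adjusted p = 2.96e-06, edgeR). It was -0.75 at T12, -0.61 at T24 and -0.95 at 96 h, where the values were 52.0, 57.6 and 48.4 CPM against 28.5, 26.3 and 26.2. At T60 the difference was -0.22 (adjusted p = 0.0495, edgeR) and was not called, although the values still did not overlap (24.0, 21.9 and 23.9 CPM against 20.7, 19.9 and 19.1). Under dTAG the log2 fold changes were -0.74, -0.75, -0.80, -0.31 and -0.83, and again T60 alone was not called (adjusted p = 0.0219, edgeR). Without replicate 3 of Ctrl at T24, the DMSO value of Pole4 at that time was -0.58 and its call was lost. Both lines were tagged at Pole4 separately, and the part of the tagging in its mRNA level was not tested.

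The calls of these genes stood against a background in which many features were lower in the MCM2-2A line. In the DMSO arms 9.06% of features were called lower at T0, 7.62% at T12, 7.60% at T24, 7.93% at T60 and 6.47% at 96 h. In the dTAG arms the shares were 8.27%, 8.52%, 7.34%, 9.25% and 6.67%. Pole, Pole2 and Pole3 were called in none of the 10 comparisons. Pole2, the second subunit of the polymerase, had values between -0.26 and -0.10 in the DMSO arms and lay below 0 in all 10. With the replicate number as a block, which applies to both line comparisons at 96 h, its dTAG value at 96 h was -0.36 with an adjusted p of 0.00574 (edgeR), which is under the 1.5-fold limit.

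The partners of MCM2 in the ring moved the other way by a smaller amount. At T0 Mcm3 had 454, 462 and 468 CPM in Ctrl and 688, 597 and 593 in Ctrl MCM2-2A, a log2 fold change of 0.42 (adjusted p = 8.35e-05, edgeR). Mcm4 had 309.8, 321 and 317 CPM against 427, 414 and 419, a log2 fold change of 0.39 (adjusted p = 3.46e-05, edgeR). For both genes every MCM2-2A library lay above every Ctrl library. At the same time Mcm7, Mcm6 and Mcm5 had log2 fold changes of 0.38, 0.37 and 0.32 and did not overlap either. How common this was among all features was not counted, and 9586 of 17972 had an unadjusted p under 0.05. None of these 5 genes passed 1.5-fold, so none was called, but all 5 had an adjusted p below 0.01, as did 16.8% of features in the upward direction. Mcm4, Mcm6 and Mcm7 passed that threshold at T12 (background 11%), all 5 at T24 (18.4%), Mcm4 and Mcm5 at T60 (14.7%), and Mcm3 and Mcm4 at 96 h (11.6%).

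Over the 5 times, 24 of 25 values of Mcm3 to Mcm7 lay above 0 in the DMSO arms and 17 of 25 had an adjusted p below 0.01. The exception was Mcm6 at T60, at -0.03. In the dTAG arms all 25 lay above 0 and 10 had an adjusted p below 0.01: Mcm4 at T0 (background 13.9%), Mcm3, Mcm4, Mcm6 and Mcm7 at T12 (17.9%), Mcm4, Mcm6 and Mcm7 at T24 (12.4%), Mcm4 and Mcm5 at T60 (16.1%) and none at 96 h (12.5%). With the replicate block at 96 h, 2 of 5 passed in the DMSO arms and 5 of 5 in the dTAG arms. Over the alternatives other than leaving out a library, the count in the DMSO arms lay between 14 and 18 and that in the dTAG arms between 10 and 20. With each library left out in turn, 79 of 150 values passed in the DMSO arms and 50 of 150 in the dTAG arms.

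**Figure D2:**
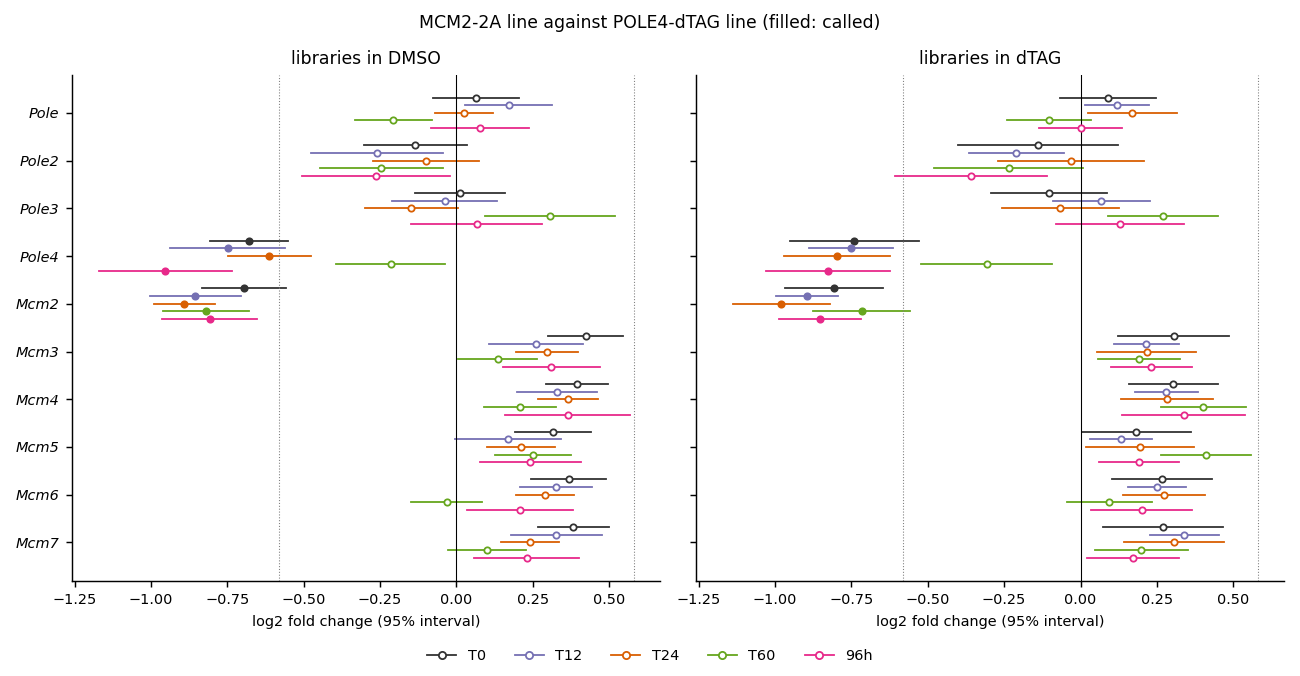
Log2 fold change (x axis) of each of the 10 genes (y axis), MCM2-2A line against POLE4-dTAG line, at the 5 times (colours) in the DMSO and dTAG panels. Bars are 95% intervals, filled symbols are called and dotted lines mark 0.58 in either direction. Mcm2 lies between -0.98 and -0.70 throughout, Pole4 rises to -0.22 and -0.31 at T60, and Mcm3 to Mcm7 lie mostly above 0 without reaching the dotted line.

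The balance within each complex was measured inside single libraries, where library scaling cancels. In Ctrl at T0, log2 CPM of Mcm2 exceeded the mean of Mcm3 to Mcm7 by 0.34, 0.32 and 0.32. In Ctrl MCM2-2A it stood at -0.66, -0.77 and -0.82 relative to that mean. The difference between lines was -1.07 at T0, -1.14 at T12, -1.17 at T24, -0.95 at T60 and -1.08 at 96 h, and under dTAG -1.07, -1.14, -1.23, -0.98 and -1.08. In all 10 comparisons the groups did not overlap, for an exact two-sided permutation p of 0.1, the smallest that 3 against 3 libraries allow. Relative to the mean of Pole, Pole2 and Pole3, Pole4 stood at 0.00, 0.02 and 0.04 in Ctrl and at -0.58, -0.57 and -0.74 in Ctrl MCM2-2A at T0. Its difference between lines was -0.65, -0.71, -0.55, -0.17 and -0.90 in the DMSO arms and -0.68, -0.74, -0.82, -0.28 and -0.75 in the dTAG arms, in the order T0, T12, T24, T60 and 96 h. The Pole4 balance thus came closer between the lines at T60 than at any other of these times, while the Mcm2 balance changed little with time.

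**Figure D3:**
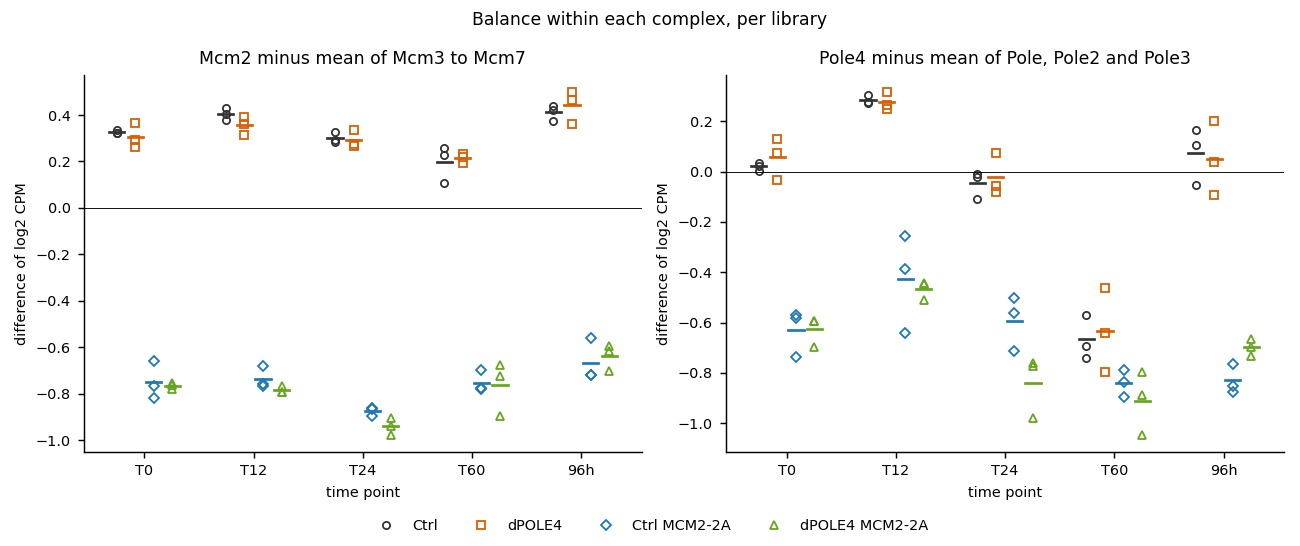
Log2 CPM of Mcm2 minus the mean of Mcm3 to Mcm7, and of Pole4 minus the mean of Pole, Pole2 and Pole3 (y axes), in each of the 60 libraries by time and arm; points are libraries and bars are group means. The Mcm2 balance is above 0 in every library of the POLE4-dTAG line and below 0 in every library of the MCM2-2A line.

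Mcm2 lies on the minus strand of mouse chromosome 6, and so does Pole4, about 6 Mb nearer the centromere. The genes around both were examined because a line is a clone. On 1 side of Mcm2, Abtb1, Gm15612 and Podxl2 were not called at T0 (log2 fold change 0.23, -0.32 and 0.45 in Ctrl MCM2-2A against Ctrl). On the other side, Tpra1, whose start is 0.003471 Mb from that of Mcm2, was called lower at -1.09, and 4933427D06Rik was called lower at -2.23. Over 2.81 Mb from the start of Mcm2 to that of Gm45828, a stretch chosen after its values were seen and so given with no test, 22 of 25 tested genes besides Mcm2 were called lower, with a median of -1.09. Among them were the plexin gene Plxna1 at -0.89, the transcription factor Klf15 at -1.94, the nucleoporin Nup210 at -0.96 and the taurine transporter Slc6a6 at -1.58. The 3 that were not called were 4930512J16Rik at 1.29, Aldh1l1 at -0.13 and Slc41a3 at -1.06.

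The flanks of the same width did not share the pattern. On the centromere side of Mcm2, 0 of 48 tested genes were called lower and 2 were called higher at T0 (median -0.03), and beyond Gm45828 0 of 13 were called lower and 3 were called higher (median 0.12), among them Grip2 at 1.39. The count lower in the stretch was 21 of 24 at T12, 19 of 25 at T24, 18 of 24 at T60 and 17 of 23 at 96 h in the DMSO arms. In the dTAG arms it was 18, 17 and 17 of 25 at T0, T12 and T24, 19 of 23 at T60 and 16 of 25 at 96 h. The medians of these 10 comparisons lay between -1.09 and -0.88. Mcm2 itself, at -0.70 at T0 in DMSO, was lower by less than the median of the stretch, and among the genes called lower there only Hdac11 was nearer 0, at -0.66. In the 10 comparisons of dTAG with DMSO within a line, 0 genes of the stretch were called. In alternatives chosen after the data were seen, DESeq2 called 19 of 29 lower at T0, DESeq2 size factors gave 22 of 25, the replicate block 21 of 25, and leaving out 1 library 18 to 21. Around Pole4 no such stretch was seen. Of 40 tested genes within 2 Mb, 1 was called lower at T0, Slc4a5 at -1.29 (median of the 40, -0.03), and its nearest neighbours Gcfc2, Mrpl19, Eva1a, Hk2, Sema4f and M1ap were not called. The part of the stretch in the level of Mcm2 was not tested.

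**Figure D4:**
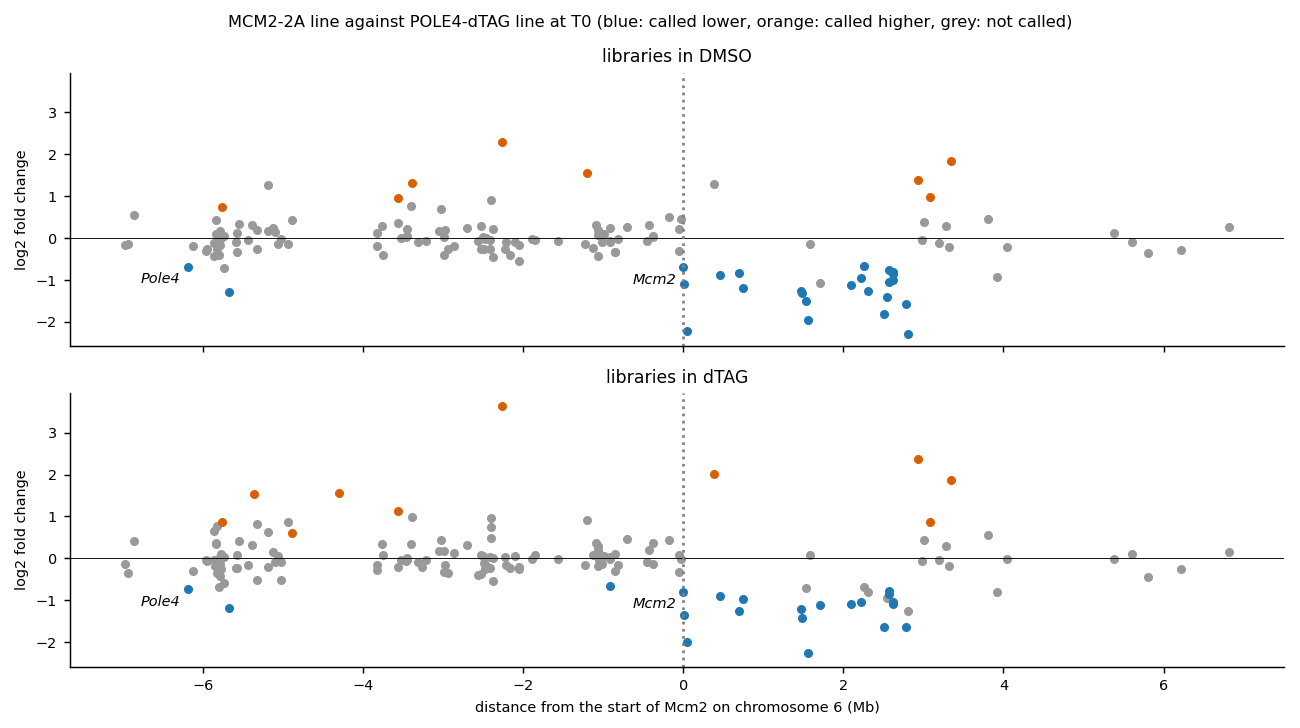
Log2 fold change at T0 of tested genes within 7 Mb of Mcm2 on chromosome 6, MCM2-2A line against POLE4-dTAG line (y axis), by distance of their start from that of Mcm2 in Mb (x axis), in the DMSO and dTAG panels; blue points are called lower, orange called higher and grey not called. Most genes in the 2.81 Mb to the right of Mcm2 are called lower, while to its left called genes are few: besides Pole4, Slc4a5 is lower at -1.29 and -1.19, H1fx is lower with dTAG alone at -0.67, and others such as Asprv1, at 2.29 and 3.64, are higher.

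Most of the 10 genes fell during the RA course, but late. RA, the lack of LIF and longer culture came together in these groups, so that they cannot be told apart. In Ctrl, 0 were called at T12 (background 11.3% called in either direction), and Pole alone had an adjusted p below 0.01 (log2 fold change -0.29, adjusted p = 0.00245, edgeR; background 9.03% lower at that threshold). At T24 still 0 were called (background 21.8%), while 7 had an adjusted p below 0.01 in the downward direction (background 20.3%). These were Pole at -0.27, Pole4 at -0.24, Mcm2 at -0.22, Mcm3 at -0.20, Mcm4 at -0.22, Mcm5 at -0.26 and Mcm7 at -0.20. At T60, 7 of 10 were called lower, against 23.7% of features.

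The largest of these falls at T60 was that of Pole4, from 50.4, 54.9 and 52.1 CPM at T0 to 24.0, 21.9 and 23.9, a log2 fold change of -1.19 ± 0.0752 (SE; adjusted p = 1.55e-09, edgeR). Mcm4 went from 309.8, 321 and 317 CPM to 169, 168 and 159, which is -0.96. Mcm3 went from 454, 462 and 468 to 258, 245 and 261, which is -0.88. In each of these genes every T60 library lay below every T0 library. Mcm5 was at -0.86, Mcm2 at -0.84, Pole2 at -0.68 and Mcm6 at -0.58. Mcm6 was only just past the fold limit, and its call was lost without replicate 3 of T0, replicate 1 of T60 or replicate 2 of T60 (-0.53, -0.58 and -0.58). The other 3 genes were not called: Pole at -0.51 (adjusted p = 3.72e-06, edgeR), Mcm7 at -0.28 (adjusted p = 0.000485, edgeR) and Pole3 at -0.30 (adjusted p = 0.0123, edgeR). The catalytic gene Pole went from 158, 179 and 174 CPM to 117, 119.5 and 128, and Mcm7 from 404, 401 and 425 to 351, 323 and 352. The 95% interval of Mcm7, from -0.41 to -0.16, lay nearer 0 than those of the 5 other MCM genes and overlapped none of them. The summed level of 12 G2 and M phase genes, a list of cycling cells, went from 3110 to 2485 CPM over the same time, and its part in the change was not tested.

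In the other arms T60 alone was compared with T0, and most of the 10 genes were again lower. In dPOLE4, 7 of 10 were called lower at T60 (background 22.5%), with Mcm4 at -1.03, Mcm3 at -0.99 and Pole4 at -1.15. In Ctrl MCM2-2A 8 of 10 were called lower (background 21.2%). There Mcm3 went from 688, 597 and 593 CPM to 294, 266 and 272 (-1.16), Mcm4 from 427, 414 and 419 to 189.7, 189 and 189.7 (-1.14), and Mcm6 from 445, 415 and 434 to 213, 219 and 219 (-0.98). In dPOLE4 MCM2-2A 8 of 10 were called lower as well (background 19.3%), with Mcm3 at -1.11 and Mcm4 at -0.94. Pole was called in both MCM2-2A arms (-0.77 and -0.62) and in neither arm of the other line (-0.51 and -0.43), although the difference between lines, given below, did not pass its own test. Pole3, which besides POLE4 also pairs with other histone-fold proteins, had log2 fold changes near 0 in the MCM2-2A arms, -0.00 and 0.02, with 32.8, 28.9 and 32.1 CPM at T0 and 33.5, 29.6 and 30.4 at T60 in Ctrl MCM2-2A. Its difference between lines was 0.27 in the DMSO arms and 0.37 in the dTAG arms, with adjusted p of 0.138 and 0.0442 (edgeR). Calls near the fold limit moved with 1 library. Pole2 in dPOLE4 lost its call without replicate 2 or 3 of T0 or replicate 2 of T60 (-0.58, -0.57 and -0.56). In dPOLE4 MCM2-2A the same held for Pole without replicate 3 of T0 or replicate 1 of T60 (-0.58 and -0.56) and for Pole2 without replicate 3 of T0 or replicate 2 of T60 (-0.54 and -0.60). Mcm7 gained a call without replicate 2 or 3 of T0 in Ctrl MCM2-2A (-0.59 and -0.60) and without replicate 3 of T0 in dPOLE4 MCM2-2A (-0.61).

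**Figure D5:**
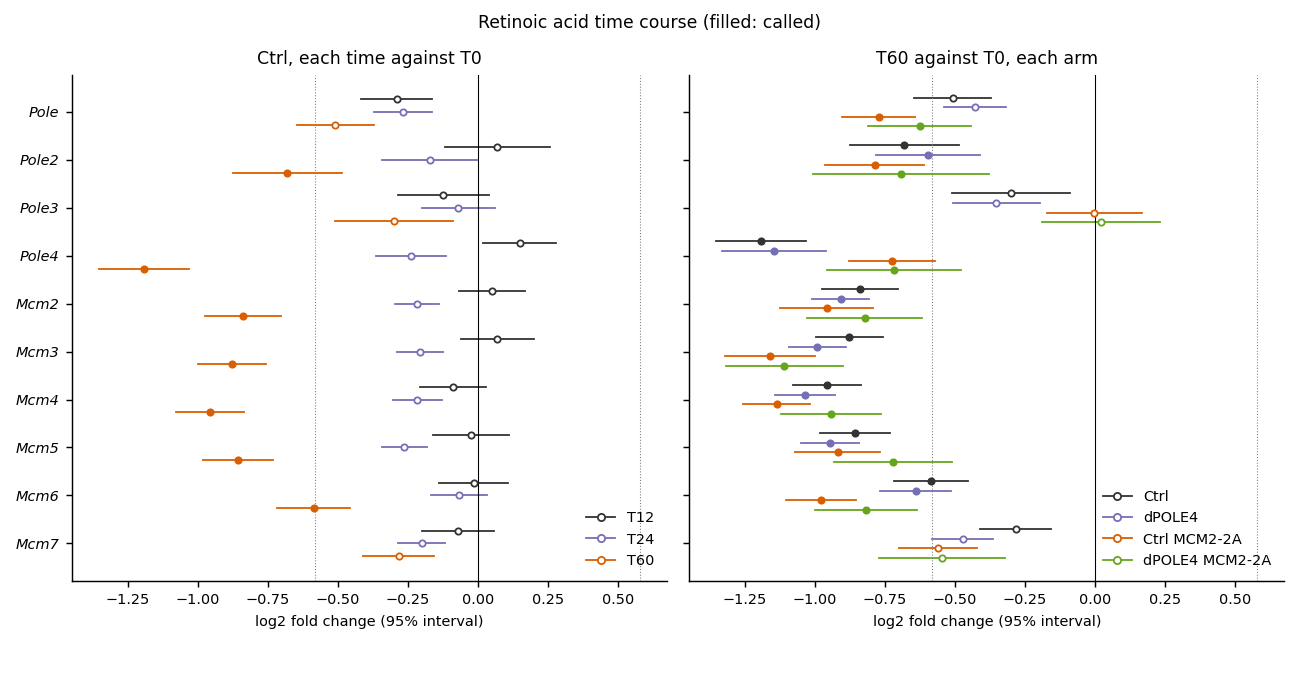
Log2 fold change of each of the 10 genes against T0 (axis with the values), at T12, T24 and T60 in Ctrl (left) and at T60 in the 4 arms (right), with 95% intervals; filled symbols are called. Values near 0 at T12 give way to falls of up to -1.19 at T60, and Pole3 lies near 0 in the MCM2-2A arms alone.

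Whether the fall differed between the lines was tested as the difference of the T60 to T0 changes. In the DMSO arms it had an adjusted p below 0.01 for 2 of the 10 genes, against 12.9% of features, and was called for 0, against 9.10%. Pole4 fell less in the MCM2-2A line, by 0.44 ± 0.0960 on the log2 scale (SE; adjusted p = 0.00294, edgeR), from a lower level at T0 to a similar level at T60. Mcm6 fell more, with a difference of -0.43 ± 0.0808 (SE; adjusted p = 0.000916, edgeR). Mcm7, Mcm3 and Pole had differences of -0.31, -0.31 and -0.30 with adjusted p of 0.0107, 0.0147 and 0.0208 (edgeR). In the dTAG arms 0 of the 10 had an adjusted p below 0.01 (background 9.79%, and 8.22% called). Pole4 had nearly the same value there, 0.42 (adjusted p = 0.0470, edgeR), and Mcm6 had -0.18 (adjusted p = 0.231, edgeR). Relative to its own complex, Pole4 changed from T0 to T60 by -0.69 in Ctrl and -0.69 in dPOLE4, but by -0.21 and -0.28 in the MCM2-2A arms. The Mcm2 balance changed by -0.13, -0.09, -0.00 and 0.00 in the same order of arms.

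Other genes of DNA replication, in lists chosen with earlier results of these data known, had medians nearer 0 than the MCM genes at T60 in Ctrl, a description with no test. Among all features 23.7% were called lower. Of 15 origin licensing genes and MCM partners 7 were called lower, with a median log2 fold change of -0.51, against -0.85 for the 6 MCM genes and -0.01 for all features. Of the CMG partners and firing factors 3 of 9 were called lower (median -0.27), of the other replicative polymerases 3 of 8 (-0.24), of the fork and Okazaki fragment genes 4 of 15 (-0.30), of the G2 and M phase genes 2 of 12 (-0.31) and of the histone partners 0 of 9 (-0.29). None of these was called higher. The 3 largest falls in the lists were those of Ticrr, a factor of origin firing, at -1.61, Mcm10, which binds the CMG, at -1.51, and Orc5, a subunit of the origin recognition complex, at -1.28. Between the lines at T0 in DMSO, where 18.9% of features were called in either direction, 2 genes of these lists were called. They were Wdhd1, a link between the CMG and polymerase alpha, at 1.31 and Supt16, a subunit of the histone chaperone FACT, at 1.06. Both lie on chromosome 14, Supt16 within the 48 to 68 Mb named above. The list medians there lay between 0.03 and 0.27, against 0.37 for the 6 MCM genes and -0.02 for all features.

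Across the 16 group means of the RA experiment, which share clones and times and so carry no p, Mcm3, Mcm4, Mcm5 and Mcm6 correlated at r = 0.93 to 0.99 with each other. Mcm2 followed Pole4 (r = 0.94) more closely than it followed the other MCM genes (r = -0.02 with Mcm7 to 0.37 with Mcm3). The 16 groups span both lines, so these r include the differences between them. Mcm2 and Pole4 were lower in the MCM2-2A line, and Mcm3 to Mcm7 were mostly higher. Pole3 correlated with the other 9 genes at r = -0.02 to 0.40. Among 20373 genes, those most like the mean of the 6 MCM genes were Gart, Mrpl18, Gtf2h4, Gm21411 and Apobec3 (r = 0.988 to 0.994 over 16 groups). Those most like Pole4 were Ccdc43, Impa1, Pigl, Psmd12 and Dtwd2 (r = 0.981 to 0.987), of which Ccdc43, Pigl and Psmd12 lie on chromosome 11, the chromosome with lower medians in the MCM2-2A line. The choice of these genes depended on the measure, since Spearman's rank kept 0 of the 5 in both cases, and single libraries kept 2 and 4.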

How the data were processed

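The authors deposited reads counted per gene and per repeat subfamily, 1 count column per library, neither normalized nor pooled. Per the labels and the study's methods, reads of rRNA-depleted, strand-specific libraries were trimmed with cutadapt 4.2, aligned to mm10 with STAR 2.7.11a with multiple alignments kept, and counted with TEtranscripts 2.2.3 on GENCODE genes. The strand setting of the counting is not given in the sources used here. Reads shared between gene copies or overlapping genes could move counts between them. Symbols and positions came from another GENCODE release of mm10, matched by gene ID (55141 of 55487 genes).

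The software was edgeR 4.0.16 and DESeq2 1.42.0 with limma 3.58.1 under R 4.3.3. Libraries entered a fit only with the groups compared. Features were kept by filterByExpr at a minimum count of 10 and a minimum total of 15, scaled by TMM over genes and repeats (factors 0.911 to 1.07, and 0.961 to 1.04 at 96 h), and tested by edgeR's quasi-likelihood F test with Benjamini-Hochberg adjustment over all tested features. A feature was called at an adjusted p below 0.01 and a log2 fold change beyond 0.58. Log2 CPM used a prior count of 2. The procedure was tested on simulated data. Depth limits the low genes most, with as few as 128 counts of Pole2 and 205 of Pole4 in a library. The 2 count tables were normalized separately and compared only within a table.

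The 10 genes and all lists were chosen with earlier results of these data known. Named besides the 10 were the 3 nearest tested genes on each side of Mcm2 and Pole4, the 5 genes most correlated with the MCM mean and with Pole4, and up to 3 called genes with the largest change in each direction from the replication lists. Other genes of chromosome 6 were named after their values were seen. Replicate numbers were taken to pair libraries where each same-numbered pair correlated above 0.1 in its deviations from the group means, which held for dTAG against DMSO at T0 and 96 h in both lines and for both line comparisons at 96 h, from the data alone. The alternatives were DESeq2, DESeq2 size factors, TMM on genes only, no filter, a stricter filter, more groups in the fit, no fold limit, the replicate block and leaving out each library.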

Additional observations from a re-analysis of the deposited data

Results flagged for a closer look

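The T60 to T0 change differed between the lines for Pole4 and for Mcm6 in the DMSO arms, by the interaction term of edgeR. For Pole4 the change in Ctrl MCM2-2A minus that in Ctrl was 0.44 on the log2 scale (adjusted p = 0.00294). For Mcm6 it was -0.43 (adjusted p = 0.000916). Neither reached the 1.5-fold limit, and in the dTAG arms the values were 0.42 for Pole4 and -0.18 for Mcm6, neither with an adjusted p below 0.01. Whether the DMSO and dTAG values differ from each other was not tested. With 3 libraries per group, single libraries were not examined as outliers.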

How the results depend on the processing

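Of 5040 single values of the 10 genes under alternatives, 4978 kept their direction and their side of the threshold. Under dTAG, 0 of 2400 values were called. Mcm2 stayed lower in the MCM2-2A line throughout, between -1.01 and -0.62. Without a fold limit, 7, 5, 7, 3 and 4 of the 10 genes passed in Ctrl MCM2-2A against Ctrl (T0, T12, T24, T60 and 96 h), 6, 5 and 3 in dPOLE4 MCM2-2A against dPOLE4 (T12, T24 and T60), 1 and 7 in Ctrl at T12 and T24 of RA, and 2 in the difference of the T60 to T0 change in the DMSO arms, by construction of that alternative. Leaving out 1 library gave 1 to 2 called between the lines at T24 in DMSO. It also moved the T60 to T0 change of the Mcm2 balance, which is near 0, across 0 in Ctrl MCM2-2A (-0.038 to 0.040) and dPOLE4 MCM2-2A (-0.043 to 0.067).

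Beyond single libraries, calls near the fold limit changed for Mcm7 at T60 in Ctrl MCM2-2A (-0.58, gained with TMM on genes only), Pole in dPOLE4 MCM2-2A (-0.57, lost under the stricter filter), and Mcm6 in Ctrl (-0.56) and Pole2 in dPOLE4 (-0.57), both lost with more groups in the fit. Counts of called features over the whole table moved by over 1.5 times in 57 of 297 cases, for example from 3395 to 6046 between the DMSO arms at T0 without a fold limit. Beside the 96 h values given above, the block changed no call of the 10 genes. Where replicate numbers did not pair libraries the mean r lay between -0.126 and 0.182.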
